A study of Mus musculus with 5 samples.

Results

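The unfolded protein response and the integrated stress response are here represented by 36 named genes, and all 36 were found by symbol among the 24100 genes of the count table. They were chosen by name, with earlier results of these data known, as stress sensors, transcription factors, chaperones, degradation factors and stress-induced enzymes. Of these, 11 are known targets of the transcription factor ATF4 and 18 are endoplasmic reticulum (ER) genes of the type driven by ATF6 and XBP1. The other 7 are in neither branch. RNA of cells sorted from mouse back skin was sequenced from 3 melanocyte libraries and 2 libraries of quiescent melanocyte stem cells (McSC). The melanocytes came from males at postnatal day 10, in full anagen, the growth phase of the hair cycle, and carried the reporters Dct-EGFP+ and Lef1-RFP+ on a CD1/C57Bl6J mix. The quiescent McSC came from males at postnatal days 60 and 62, in the 2nd telogen, a resting phase, and carried Dct-eGFP+ alone on a CD1/C57Bl6J mix. Each library pooled 2 to 4 males. Both populations were gated on the Dct reporter, which marks the pigment lineage, on medium to low integrin α6, and against Sca-1, CD34, CD140a, CD45 and CD31. For melanocytes the Lef1 reporter and c-Kit were required as well, so age, hair cycle stage, reporter genotype and gate differed together between the groups and cannot be told apart. In bulk libraries, fewer cells of a type and less RNA per cell cannot be told apart either.

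The unfolded protein response senses unfolded proteins in the ER through the membrane proteins IRE1α, PERK and ATF6. IRE1α splices the mRNA of Xbp1, ATF6 is cleaved to release a transcription factor, and both XBP1 and ATF6 activate chaperone and degradation genes. PERK and related kinases phosphorylate the translation factor eIF2α, which lowers general protein synthesis and allows translation of ATF4, the common arm of the integrated stress response. Pigment cells fold large amounts of melanosomal glycoproteins in the ER, and ATF4 has been linked to lower MITF in melanoma cells. Splicing, phosphorylation, cleavage and translation were not measured, so the values below are mRNA levels only.

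Total counts were 17512381 to 67275054 in melanocyte libraries, and 67483295 and 124530834 in quiescent McSC libraries. Levels are given as CPM, counts scaled to the TMM-adjusted library size, and fold changes on the log2 scale as melanocyte over quiescent McSC with their standard error (SE). A gene was called when the Benjamini-Hochberg adjusted p of edgeR's quasi-likelihood test over 16953 tested genes was under 0.05. All 36 members passed the filter on low counts. The melanocyte libraries differed in their lineage markers. Dct stood at 1073, 5777 and 6505 CPM in melanocytes against 10444 and 11528 CPM in quiescent McSC, and Tyr at 219, 1456 and 1676 CPM in melanocytes against 400.0 and 334 CPM in quiescent McSC. The summed level of 10 lineage markers was 3096 to 19760 CPM in melanocytes, lowest in replicate 1, against 20366 and 21782 CPM in quiescent McSC. Of these 10 markers, 0 were called higher in melanocytes, 4 lower and 6 were not called, Dct and Tyr among the last. Kit, the gene of the c-Kit of the melanocyte gate, stood at 157, 454 and 484 CPM in melanocytes against 1657 and 1541 CPM in quiescent McSC (-2.13 ± 0.46, adjusted p = 0.00923). Fibroblast and dermal papilla markers summed to 2114 to 5665 CPM in melanocytes, highest in replicate 1, against 79.8 and 112 CPM in quiescent McSC, with 11 of 12 markers called higher. Hair follicle and hair shaft markers summed to 4333 to 6495 CPM in melanocytes against 151 and 175 CPM in quiescent McSC, with 15 of 16 called higher and Krt34 without a count in quiescent McSC. Keratinocyte markers were high in both groups, at 3680 to 5044 CPM in melanocytes against 3093 and 4283 CPM in quiescent McSC. Of 11 tested keratinocyte markers, 5 were higher in melanocytes (Krt5, Trp63, Dsp, Sfn and Ivl) and 5 lower (Krt15, Krt1, Krt10, Krtdap and Lor). Trp63 stood at 611, 658 and 546 CPM in melanocytes against 89.6 and 77.6 CPM in quiescent McSC. Krt10 stood at 70.5, 14.3 and 37.1 CPM in melanocytes against 657 and 1261 CPM in quiescent McSC.

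Melanocyte libraries held less mRNA of Atf4, Ddit3, Xbp1, Ppp1r15a and Hspa5 than quiescent McSC libraries, and more of Atf5 and the serine and asparagine enzymes. ER chaperones were called in both directions. Which cells in the libraries held these mRNAs was not tested. In melanocytes 13 of the 36 members were higher and 14 lower, and 9 were not called, so that 75% were called, against 55.4% of all tested genes. The members higher in melanocytes were 36.1%, beside 29.1% of all tested genes, and those lower were 38.9%, beside 26.2%. The same 29.1% and 26.2% are the background for each count by role, branch or list below. Changes of at least 2-fold were found for 6 members toward higher and 10 toward lower levels in melanocytes, where 20.3% and 16.7% of all tested genes changed so. In 31 of 36 members the groups did not overlap, and the same held for 74.5% of all tested genes. That share is the background for each statement on overlap below. The median log2 fold change of the members was -0.10, beside 0.03 over all tested genes. With library size as the only scaling the 2 medians were 0.12 and 0.26, and 6064 genes were higher and 3456 lower in melanocytes in place of 4937 and 4448. The members summed to 5171, 6047 and 5752 CPM in melanocyte replicates 1 to 3, against 7447 and 7946 CPM in quiescent McSC replicates 1 and 2.

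**Figure D1:**
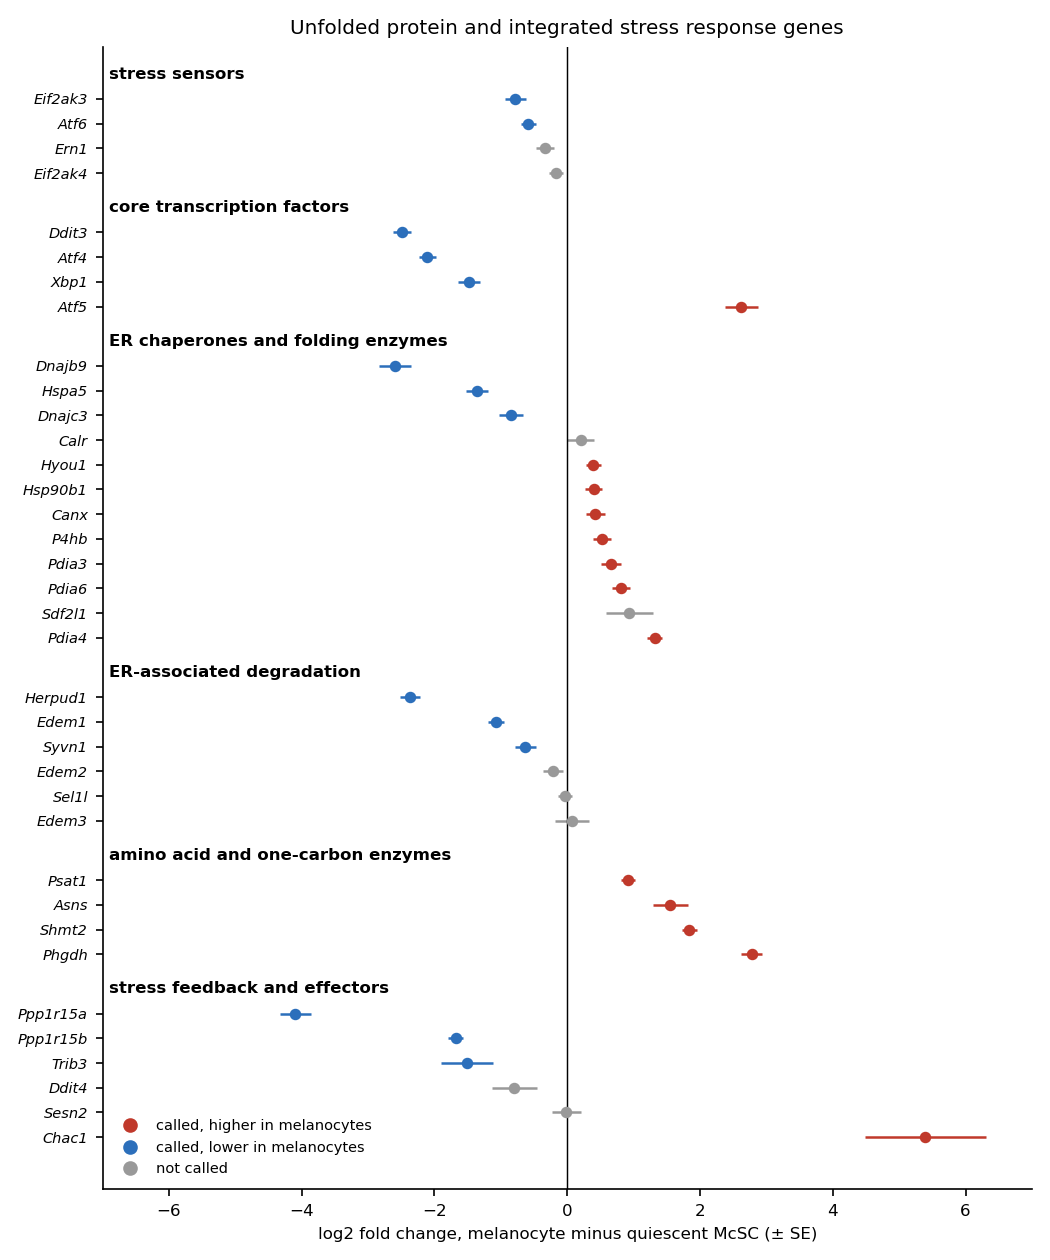
Log2 fold change of each of the 36 members, melanocyte minus quiescent McSC, with bars for the SE, grouped by role (3 melanocyte and 2 quiescent McSC libraries). The 4 amino acid and one-carbon enzymes lie to the right of 0 and 3 of the 4 core transcription factors to the left, while the ER chaperones fall on both sides.

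The stress sensors held small differences. Of 4 genes, 2 were lower in melanocytes, none was higher and 2 were not called (median -0.46). Eif2ak3, which encodes the ER kinase PERK, stood at 25.2, 30.0 and 32.9 CPM in melanocytes against 45.5 and 55.4 CPM in quiescent McSC (log2 fold change -0.78 ± 0.16 SE, adjusted p = 0.00776). Atf6 stood at 56.9, 63.0 and 54.6 CPM in melanocytes against 83.5 and 91.2 CPM in quiescent McSC (-0.58 ± 0.11, adjusted p = 0.00555). In both genes every melanocyte library was below both quiescent McSC libraries. Ern1, which encodes IRE1α, was not called at 19.0 ± 0.359 against 24.0 ± 0.127 CPM (-0.34 ± 0.13, adjusted p = 0.0703), although its groups did not overlap either. It was called lower in melanocytes with DESeq2 (adjusted p = 0.00872) and limma-voom (0.0485). Eif2ak4, the gene of GCN2, an eIF2α kinase that responds to uncharged tRNA, was not called at 46.9 ± 2.59 CPM in melanocytes against 52.9 ± 0.935 CPM in quiescent McSC (-0.17 ± 0.11, adjusted p = 0.205), and its log2 fold change was 0.048 with library size only. Eif2ak3 was no longer called when quiescent McSC replicate 2 was left out (adjusted p = 0.0684).

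The core transcription factors were lower in melanocytes except for Atf5. Atf4, the effector of the integrated stress response, stood at 239.7, 267 and 252 CPM in melanocytes against 1066 and 1114 CPM in quiescent McSC (-2.11 ± 0.13, adjusted p = 0.000113). Ddit3, the gene of the death-promoting factor CHOP and itself an ATF4 target, stood at 15.0, 16.9 and 17.6 CPM in melanocytes against 83.5 and 101 CPM in quiescent McSC (-2.48 ± 0.14, adjusted p = 8.07e-05). Xbp1, counted over spliced and unspliced forms, stood at 59.4, 69.3 and 85.1 CPM in melanocytes against 187 and 210.1 CPM in quiescent McSC (-1.48 ± 0.17, adjusted p = 0.000789). In each of these genes the quiescent McSC libraries lay above all melanocyte libraries by more than the spread within either group. Atf5, a relative of Atf4 that is linked to mitochondrial stress and is also an ATF4 target, went the other way, at 99.3, 72.1 and 119 CPM in melanocytes against 14.3 and 17.1 CPM in quiescent McSC (2.62 ± 0.24, adjusted p = 0.000411). These 4 calls were kept under all 16 alternatives.

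Without strand in the libraries, reads at the ends of neighbouring genes cannot be told apart. Ddit3 (chromosome 10, 127290793 to 127296291) overlaps Mars1 by 71 bases and Mbd6 by 77 bases. Mars1, a tRNA synthetase gene, was higher in melanocytes (1.08 ± 0.09), opposite to Ddit3, and Mbd6 was not called (-0.23 ± 0.31, adjusted p = 0.553). Atf5 (chromosome 7, 44812256 to 44816658) overlaps Nup62 by 571 bases, and Nup62 differed by 0.49 ± 0.11, less than Atf5. Hspa5 (chromosome 2, 34772090 to 34776529) overlaps Rabepk by 1921 bases, and Rabepk was low at 13.7 CPM in melanocytes against 13.8 CPM in quiescent McSC. In all, 9 members overlap another gene of the count table. Ppp1r15a overlaps Tulp2 by 730 bases, Pdia3 overlaps Catsper2 by 697 bases and Atf5 overlaps Il4i1b by 289 bases. The levels of these further neighbours are not given here.

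**Figure D2:**
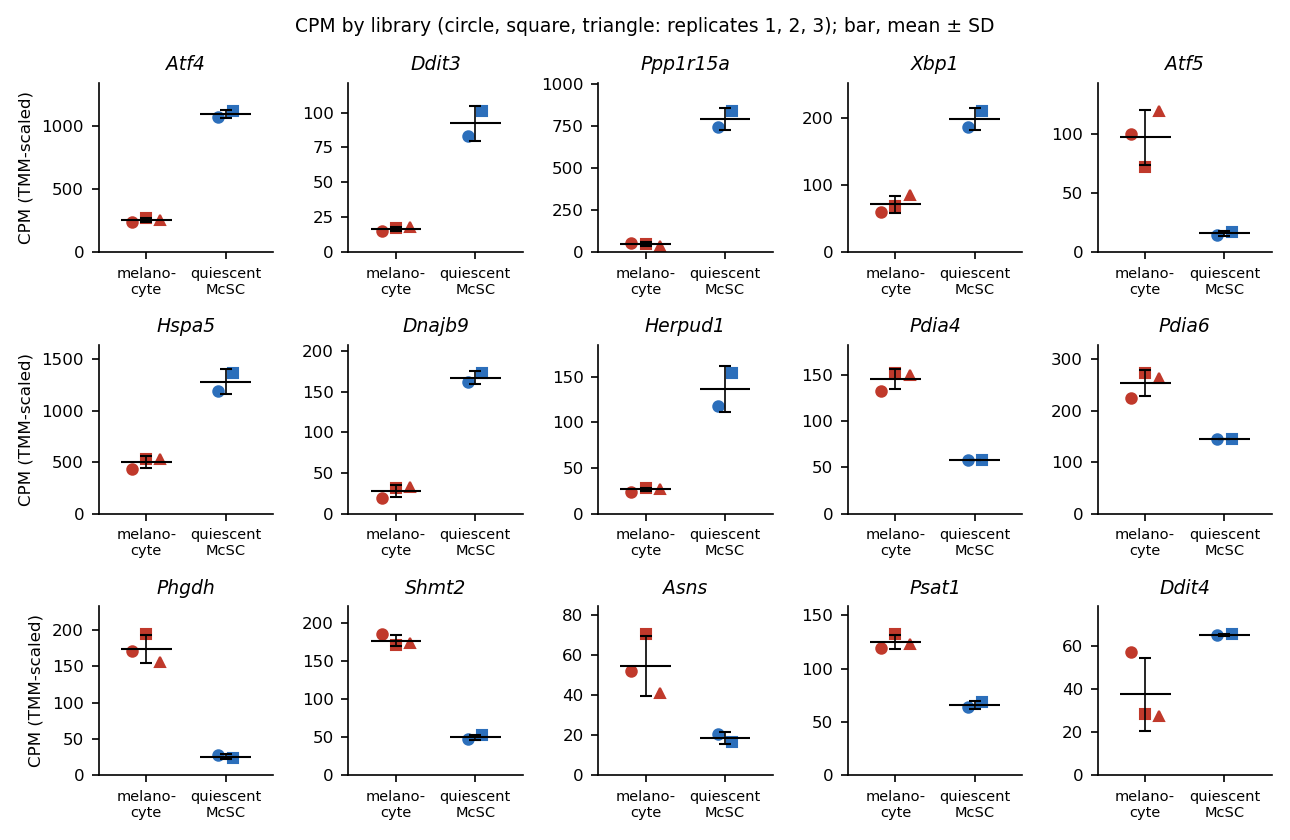
CPM of 15 members in each library, with melanocytes at the left and quiescent McSC at the right of each panel; bars are the mean ± SD (n = 3 and n = 2) and every axis starts at 0. Atf4, Ddit3, Ppp1r15a, Xbp1, Hspa5, Dnajb9 and Herpud1 are lower in all melanocyte libraries, and Atf5, Pdia4, Pdia6 and the serine and asparagine enzymes are higher.

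The ER chaperones and folding enzymes were called in both directions. Of 12 genes, 7 were higher, 3 lower and 2 not called (median 0.41). Hspa5, the gene of BiP, the main ER chaperone and the brake on the stress sensors, stood at 433, 531 and 532 CPM in melanocytes against 1195 and 1369 CPM in quiescent McSC (-1.36 ± 0.17, adjusted p = 0.00103). Dnajb9, a BiP co-chaperone (ERdj4), showed 18.7, 31.6 and 33.0 CPM in melanocytes against 161 and 173 CPM in quiescent McSC (-2.60 ± 0.25, adjusted p = 0.000438). Dnajc3, a further BiP co-chaperone (P58IPK), showed 91.5, 125 and 135 CPM in melanocytes against 221 and 200.4 CPM in quiescent McSC (-0.85 ± 0.18, adjusted p = 0.00908). Melanocyte replicate 1 was the lowest library for each of the 3. Dnajc3 was no longer called when quiescent McSC replicate 1 was left out (adjusted p = 0.0627).

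The 4 members of the protein disulfide isomerase family, which form and rearrange disulfide bonds (Pdia3, Pdia4, Pdia6 and P4hb), were higher in melanocytes. Pdia4 stood at 133, 152 and 150.3 CPM in melanocytes against 58.1 and 58.3 CPM in quiescent McSC (1.32 ± 0.11, adjusted p = 0.000298), the only chaperone past 2-fold toward melanocytes. Pdia6 stood at 225, 274 and 263 CPM in melanocytes against 145 CPM in both quiescent McSC libraries (0.81 ± 0.13, adjusted p = 0.00307). Smaller differences were called for Pdia3, which acts on glycoproteins (485 ± 53.9 against 307 ± 10.3 CPM; 0.66 ± 0.15, adjusted p = 0.0106), and for P4hb (447 ± 42.7 against 312 ± 7.41 CPM; 0.52 ± 0.14, adjusted p = 0.0199). The lectin chaperone gene Canx (0.42 ± 0.14, adjusted p = 0.0486), Hsp90b1, the gene of GRP94 (0.40 ± 0.13, adjusted p = 0.0432), and Hyou1, the gene of a nucleotide exchange factor of BiP (0.39 ± 0.11, adjusted p = 0.0256), were also higher in melanocytes. Calr, the soluble lectin chaperone, was not called at 714 ± 140.2 CPM in melanocytes against 621 ± 23.7 CPM in quiescent McSC (0.20 ± 0.20, adjusted p = 0.432), and its groups overlapped. Sdf2l1, a partner of BiP complexes, read 18.5, 23.9 and 41.8 CPM in melanocytes against 13.7 and 15.6 CPM in quiescent McSC and was not called (0.94 ± 0.36, adjusted p = 0.0659).

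The 5 smaller calls rested on both quiescent McSC libraries, whereas Pdia4 and Pdia6 kept their calls under all 16 alternatives. Without quiescent McSC replicate 1, the adjusted p was 0.0641 for Pdia3, 0.122 for P4hb, 0.158 for Canx, 0.189 for Hsp90b1 and 0.163 for Hyou1. Without replicate 2 it was 0.083, 0.0997, 0.217, 0.182 and 0.085 for the same genes. Canx and Hsp90b1 were also lost without melanocyte replicate 2 (0.0906 and 0.0716) or replicate 3 (0.104 and 0.098), with DESeq2's size factors in edgeR (0.0605 and 0.055) and with no filter on low counts (0.0576 and 0.0555). Hyou1 was also lost without melanocyte replicate 3 (0.0509). Sdf2l1 was called higher without melanocyte replicate 1 (0.00811), with library size only (0.0345), with DESeq2 (0.0258) and after thinning (0.047).

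The known response element of ER chaperone promoters was found in genes called in either direction. Promoters from RefSeq (GRCm38.p6, 250 bases before to 50 after the gene start) were available for 33 members, and Atf6, Hyou1 and Ppp1r15b had no entry. The shorter UPR element bound by XBP1, searched as TGACGTGG, had an exact match in no member and in 0.714% of all genes. The ER stress response element (ERSE) was searched on both strands as CCAAT and CCACG separated by any 9 bases. It was present in 6 of the 11 chaperone genes with a promoter and in 1 of 6 degradation genes, in none of the 11 ATF4 targets, and in 37 of 27025 genes overall (0.137%). Of the 7 ERSE genes, 3 were higher in melanocytes (Pdia6, Canx, Hsp90b1), 3 lower (Hspa5, Dnajc3, Syvn1) and 1, Calr, was not called. Among these calls, only those of Pdia6 and Hspa5 were kept under all 16 alternatives. The sites are listed so that their spacers can be compared, with the CCAAT and CCACG parts in capitals and 5′ to 3′ on the strand of the motif. All 7 genes share the outer parts by the search, and the 9 bases between them differ from gene to gene.
Hspa5 (chr2:34772025-34772043, plus strand): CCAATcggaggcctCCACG
Dnajc3 (chr14:118937827-118937845, plus strand): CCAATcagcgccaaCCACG
Syvn1 (chr19:6046532-6046550, plus strand): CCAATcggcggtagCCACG
Calr (chr8:84847075-84847093, plus strand): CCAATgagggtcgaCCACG
Hsp90b1, distal (chr10:86705638-86705656, minus strand): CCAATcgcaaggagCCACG
Hsp90b1, proximal (chr10:86705533-86705551, plus strand): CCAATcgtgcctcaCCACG
Canx (chr11:50325800-50325818, minus strand): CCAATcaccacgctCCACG
Pdia6 (chr12:17266491-17266509, plus strand): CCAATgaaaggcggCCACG

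Hspa5 and Hsp90b1 encode ER members of the HSP70 and HSP90 families and were called in opposite directions, so the 250 bases before their gene starts are shown. The call of Hsp90b1 was lost in 7 of the 16 alternatives. ERSE matches are in capitals, and a match on the opposite strand is read as its reverse complement. The single exact match of Hspa5 lies 65 to 47 bases before the start. Those of Hsp90b1 lie 212 to 194 and 107 to 89 bases before it, the proximal one on the opposite strand. Only exact matches to the searched letters were counted, so elements that differ from them by a base are missed. Motif matches describe letters in these windows and not occupied sites.
Hspa5 (chr2:34771840-34772089, plus strand): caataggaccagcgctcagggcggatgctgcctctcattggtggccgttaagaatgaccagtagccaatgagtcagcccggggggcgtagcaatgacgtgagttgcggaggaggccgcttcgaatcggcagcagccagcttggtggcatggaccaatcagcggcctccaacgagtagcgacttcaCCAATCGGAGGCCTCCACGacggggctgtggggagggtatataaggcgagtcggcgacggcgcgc
Hsp90b1 (chr10:86705445-86705694, minus strand): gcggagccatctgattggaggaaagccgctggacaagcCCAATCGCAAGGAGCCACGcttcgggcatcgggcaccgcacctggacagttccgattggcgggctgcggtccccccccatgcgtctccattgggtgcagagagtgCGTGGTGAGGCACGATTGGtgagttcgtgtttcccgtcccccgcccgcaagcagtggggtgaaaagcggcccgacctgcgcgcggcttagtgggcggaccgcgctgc

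ER-associated degradation, which returns misfolded proteins to the cytosol for destruction, was lower in melanocytes for 3 of 6 genes, higher for none and not called for 3 (median -0.42). Herpud1, a scaffold of the degradation complex, stood at 24.0, 27.7 and 27.3 CPM in melanocytes against 118 and 154 CPM in quiescent McSC (-2.37 ± 0.15, adjusted p = 0.000113). Edem1, which steers misfolded glycoproteins to degradation, stood at 89.5, 87.1 and 105 CPM in melanocytes against 192 and 204 CPM in quiescent McSC (-1.08 ± 0.12, adjusted p = 0.000761). Syvn1, the ubiquitin ligase HRD1, stood at 49.5 ± 6.31 against 76.6 ± 10.9 CPM (-0.63 ± 0.15, adjusted p = 0.0142). Its call was lost without quiescent McSC replicate 2 (0.107) and with library size only (0.0943). Its adaptor Sel1l (-0.03 ± 0.11, adjusted p = 0.82) and the Edem1 relatives Edem2 (-0.22 ± 0.15, adjusted p = 0.269) and Edem3 (0.08 ± 0.26, adjusted p = 0.814) were not called, and in all 3 the groups overlapped. Sel1l averaged 94.2 ± 8.07 CPM in melanocytes against 96.4 ± 3.10 CPM in quiescent McSC, and Edem3 read 65.3, 109 and 116 CPM in melanocytes against 99.9 and 83.5 CPM in quiescent McSC. Their signs changed with the setting, as given under the processing alternatives. Herpud1 is shown because its promoter holds elements of both branches. These are a variant ERSE, searched as ATTGG and CCACG separated by any 1 base and found in 12 of 27025 genes (0.0444%), and a C/EBP-ATF response element (CARE), the element that ATF4 binds. CARE was searched as TGATGNAA and found in 1219 of 27025 genes (4.51%). The CARE lies on the opposite strand, 112 to 105 bases before the start, and the variant ERSE 52 to 42 bases before it, both in capitals. The variant shares the letters CCACG with the ERSE, and its ATTGG is the reverse complement of CCAAT.
Herpud1 (chr8:94386179-94386428, plus strand): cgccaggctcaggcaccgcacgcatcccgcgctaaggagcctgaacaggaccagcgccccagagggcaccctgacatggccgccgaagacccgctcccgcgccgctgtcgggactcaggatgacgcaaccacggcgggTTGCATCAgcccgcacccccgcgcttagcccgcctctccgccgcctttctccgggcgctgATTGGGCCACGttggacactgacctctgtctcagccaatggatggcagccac

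**Figure D3:**
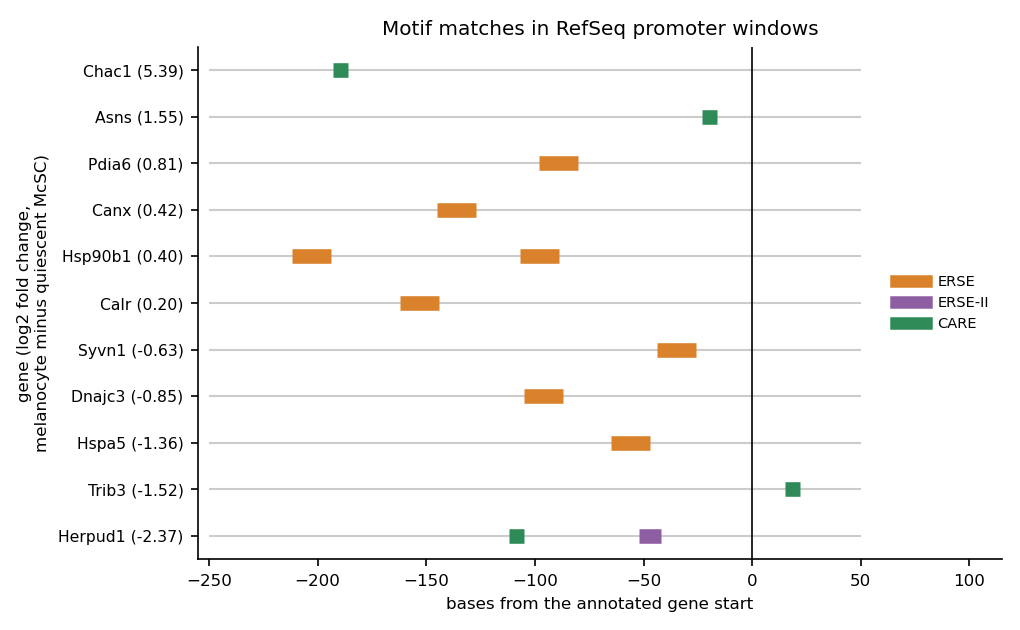
Positions of ERSE, variant ERSE (ERSE-II) and CARE matches in the promoter windows of the 11 members that hold one, in bases from the annotated gene start, ordered by log2 fold change (melanocyte minus quiescent McSC, in brackets). ERSE genes run from -1.36 to 0.81, and CARE genes from -2.37 to a poorly determined 5.39 for Chac1. Only exact matches are shown, and a link between either element and the direction was not tested.

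The amino acid and one-carbon enzymes were all higher in melanocytes (4 of 4, median 1.70). Phgdh, the first enzyme of serine synthesis, stood at 171, 194 and 155 CPM in melanocytes against 27.5 and 23.3 CPM in quiescent McSC (2.78 ± 0.16, adjusted p = 8.45e-05). Shmt2, the mitochondrial enzyme that turns serine into glycine and a one-carbon unit, stood at 185, 171 and 174 CPM in melanocytes against 47.0 and 52.1 CPM in quiescent McSC (1.84 ± 0.11, adjusted p = 0.000105). Asns, asparagine synthetase, stood at 52.0, 70.5 and 40.8 CPM in melanocytes against 20.6 and 16.6 CPM in quiescent McSC (1.55 ± 0.26, adjusted p = 0.00338). Psat1, the second enzyme of serine synthesis, stood at 119.8, 132 and 124 CPM in melanocytes against 63.6 and 68.8 CPM in quiescent McSC (0.92 ± 0.11, adjusted p = 0.000825). No melanocyte library overlapped a quiescent McSC library in any of them, as in 74.5% of all tested genes. The 4 calls were kept under all 16 alternatives. Markers of the hair follicle (median 7.37) and of fibroblasts (6.07) were also higher in melanocytes, and their part in these differences was not tested. Between melanocyte replicates 1 and 3, the median log2 ratio was 0.11 for the 4 enzymes and -2.66 for the pigment lineage markers. It was 1.55 for the fibroblast markers and -0.17 for the hair follicle markers.

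The stress feedback and effector genes held the largest differences in both directions. Of 6 genes, 3 were lower in melanocytes, 1 higher and 2 not called (median -1.16). Ppp1r15a encodes GADD34, the stress-induced subunit that directs a phosphatase to eIF2α. It stood at 55.0, 50.2 and 33.6 CPM in melanocytes against 745 and 839 CPM in quiescent McSC (-4.09 ± 0.24, adjusted p = 9.21e-05), that is 17.1-fold higher in quiescent McSC. Ppp1r15b, its constitutive counterpart CReP, stood at 116, 129.7 and 120.4 CPM in melanocytes against 373 and 409.6 CPM in quiescent McSC (-1.68 ± 0.12, adjusted p = 0.000158). Every melanocyte library was below every quiescent McSC library in both. Trib3, a pseudokinase that restrains ATF4 and AKT, was low throughout, at 1.09, 0.850 and 0.535 CPM in melanocytes against 2.20 and 2.60 CPM in quiescent McSC (-1.52 ± 0.39, adjusted p = 0.0181). Its call was lost without quiescent McSC replicate 1 (0.0636) or replicate 2 (0.102), without melanocyte replicate 2 (0.053) and when every library was thinned to the shallowest depth (0.0681).

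Chac1, an enzyme that degrades glutathione and a known ATF4 target, was higher in melanocytes at a low level, with 2.00, 2.38 and 2.41 CPM. Quiescent McSC replicate 1 had 0 counts, which allows up to 3 counts or 0.0481 CPM for counting error only, and replicate 2 had 10 counts or 0.0893 CPM. The fitted log2 fold change was 5.39 ± 0.92 (adjusted p = 0.00365), and it rests on 288 counts in melanocytes and 10 in quiescent McSC. Its size is poorly determined, at 3.63 when every library was thinned to the shallowest depth and 9.74 without quiescent McSC replicate 2, while the gene was called in all 15 alternatives that tested it. Its promoter is shown because Chac1, unlike Ddit3 and Trib3, was higher in melanocytes. It holds a CARE, in capitals and on the opposite strand, 193 to 186 bases before the start. Asns holds a CARE 23 to 16 bases before its start and Trib3 1 on the opposite strand, 15 to 22 bases after it, so that 3 of 11 ATF4 targets had a match. Of the 4 members with a CARE, 2 were higher in melanocytes (Chac1, Asns) and 2 lower (Trib3, Herpud1).
Chac1 (chr2:119350992-119351241, plus strand): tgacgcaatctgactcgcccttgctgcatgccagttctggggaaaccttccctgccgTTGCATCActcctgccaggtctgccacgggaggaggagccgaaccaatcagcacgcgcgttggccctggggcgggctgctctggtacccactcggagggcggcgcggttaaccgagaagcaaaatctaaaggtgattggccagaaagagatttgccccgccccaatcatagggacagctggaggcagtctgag

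Ddit4 and Sesn2, which both restrain the growth kinase mTORC1 under stress, were not called. Ddit4 read 57.1, 28.3 and 27.3 CPM in melanocytes against 65.0 and 65.6 CPM in quiescent McSC (-0.80 ± 0.33, adjusted p = 0.0858). Melanocyte replicate 1 stood near the quiescent McSC level, and without it the gene was called lower in melanocytes (-1.23 ± 0.12, adjusted p = 0.000157), as it was with DESeq2 (0.0498) and limma-voom (0.0425). Sesn2 averaged 17.4 ± 3.06 CPM in melanocytes against 17.6 ± 2.59 CPM in quiescent McSC (-0.01 ± 0.21, adjusted p = 0.966), with overlapping groups.

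Set apart by branch, the 11 ATF4 targets had 6 genes higher in melanocytes (54.5%), 3 lower (27.3%) and 2 not called, with a median log2 fold change of 0.92. The 18 ATF6/XBP1-type genes had 7 higher (38.9%), 6 lower (33.3%) and 5 not called, with a median of 0.14. Of all tested genes 29.1% were higher and 26.2% lower, with a median of 0.03. The difference between the branches was not tested, since the members were not drawn at random. Within the ATF4 targets the range ran from -4.09 for Ppp1r15a to a poorly determined 5.39 for Chac1. All 4 biosynthetic enzymes, Atf5 and Chac1 were higher, and Ddit3, Ppp1r15a and Trib3 were lower. Within the ATF6/XBP1 type the range ran from -2.60 for Dnajb9 to 1.32 for Pdia4. Without quiescent McSC replicate 1 or 2, only 2 ATF6/XBP1-type genes were higher in melanocytes and 5 lower, while 6 ATF4 targets were higher and 2 lower in either case.

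Per kilobase of exon, the order of the members differed between the groups. In melanocytes the highest levels were Calr at 327 CPM per kilobase, Hsp90b1 at 228, Pdia3 at 175, P4hb at 156 and Atf4 at 147. In quiescent McSC they were Atf4 at 632 CPM per kilobase, Hspa5 at 342, Calr at 284, Ppp1r15a at 269.8 and Hsp90b1 at 173. Hspa5 stood at 133 CPM per kilobase in melanocytes and Ppp1r15a at 15.8. Phgdh reached 91.7 CPM per kilobase in melanocytes and 13.4 in quiescent McSC. The lowest levels in both groups were those of Trib3 (0.406 CPM per kilobase in melanocytes and 1.18 in quiescent McSC) and Chac1 (1.38 and 0.0273). Lengths are the union of exons of a gene, so a gene that uses a short isoform is understated on this scale.

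**Figure D4:**
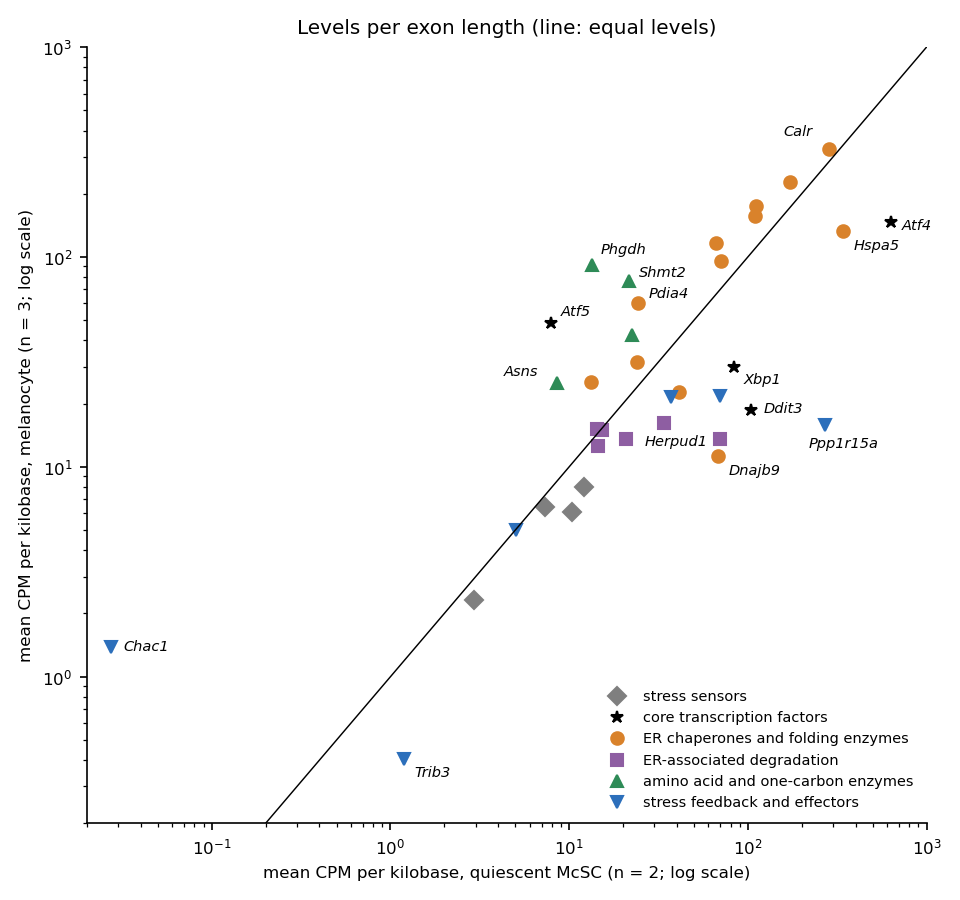
Mean CPM per kilobase of exon in melanocytes (y axis, n = 3) against quiescent McSC (x axis, n = 2) for the 36 members, both axes logarithmic; the line marks equal levels. Atf4, Hspa5 and Ppp1r15a lie below the line at high levels, and Phgdh, Shmt2 and Atf5 above it.

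The members varied less among the melanocyte libraries than the lineage markers did. The median coefficient of variation of the members was 10.7% over the 3 melanocyte libraries and 6.79% over the 2 quiescent McSC libraries. Between melanocyte replicates 1 and 3 the log2 ratio of the members had a median of -0.11 and ran from -1.18 for Sdf2l1 to 1.06 for Ddit4, with Trib3 as the third gene past 1 in size (1.01). The lineage markers had a median ratio of -2.66 between the same libraries.

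Immediate early genes, which respond within minutes to many stimuli including tissue dissociation, were mostly lower in melanocytes. Of 23 genes, 22 were lower in melanocytes and 1, Egr3, was higher (median -2.59). They summed to 3608 to 3925 CPM in melanocytes, against 31953 and 49605 CPM in quiescent McSC. Maff (-4.13 ± 0.11), Myc (-2.35 ± 0.11) and Klf4 (-4.17 ± 0.22) had the smallest p. Atf3, an immediate early gene that ATF4 also activates, stood at 71.1, 110.1 and 67.1 CPM in melanocytes against 4321 and 5617 CPM in quiescent McSC (-5.91 ± 0.32, adjusted p = 7.83e-05). Cytosolic heat shock genes were lower in melanocytes for 9 of 17 and higher for 2 (median -0.78). Dnajb4 (-2.88 ± 0.13), Dnajb1 (-2.60 ± 0.14) and Bag3 (-2.44 ± 0.16), which assist or regulate HSP70, led by p. The part of a response to cell preparation in the values of Atf4, Ddit3, Ppp1r15a, Hspa5, Dnajb9 and Herpud1 was not tested. Mitf stood at 43.7, 120.5 and 139 CPM in melanocytes against 1177 and 1033 CPM in quiescent McSC (-3.45 ± 0.47, adjusted p = 0.00164). Between melanocyte replicates 1 and 3 the log2 ratio was -1.67 for Mitf and -0.07 for Atf4. A link between the levels of Mitf and Atf4 was not tested.

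Other ATF4 targets were called in both directions. In melanocytes 13 of 28 genes were higher and 6 lower, and 9 were not called (median 0.65). Atf3, counted here and among the immediate early genes, had the smallest p and was lower in melanocytes (-5.91 ± 0.32). Cth, an enzyme of cysteine synthesis, stood at 34.2 ± 2.76 CPM in melanocytes against 3.81 ± 0.506 CPM in quiescent McSC (3.17 ± 0.18, adjusted p = 8.97e-05). Mthfd2, a mitochondrial one-carbon enzyme, stood at 45.9 ± 4.82 against 5.33 ± 1.35 CPM (3.11 ± 0.22, adjusted p = 0.000165). Of 12 cytosolic aminoacyl-tRNA synthetases, many of them ATF4 targets, 11 were higher in melanocytes and none lower (median 0.89). Mars1 (1.08 ± 0.09), Yars (1.23 ± 0.12) and Gars (1.48 ± 0.16) had the smallest p, and only Cars was not called.

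The wider ER machinery showed mixed directions. Among 29 other folding and translocation genes 10 were higher (34.5%) and 4 lower (13.8%) in melanocytes, and 15 were not called (median 0.04). Of all tested genes 29.1% were higher and 26.2% lower. Sec62, a translocation factor, was lower (-1.54 ± 0.11), as was Hspa13 (-1.41 ± 0.13), and the disulfide isomerase gene Txndc5 was higher (1.09 ± 0.11). Of 17 other degradation genes, 6 were lower in melanocytes, 3 higher and 8 not called (median -0.20), with Herpud2 (-1.57 ± 0.14), Ubxn4 (-1.06 ± 0.11) and the lectin gene Os9 (-0.86 ± 0.11) among the lower. Of 21 other sensors and regulators, 10 were higher, 6 lower and 5 not called (median 0.43). Nfe2l2, the gene of the antioxidant regulator NRF2 and a PERK substrate, was lower (-1.98 ± 0.13), Creb3l2 was lower (-1.66 ± 0.19), and Eif2b4, a subunit of the exchange factor that eIF2α phosphorylation inhibits, was higher (1.27 ± 0.12). Of 9 genes of the mitochondrial unfolded protein response, 4 were higher in melanocytes and none lower (median 0.39), led by Hspd1 (1.17 ± 0.17), Clpp (0.93 ± 0.14) and Hspe1 (0.93 ± 0.14). The called shares were 48.3% for the other folding and translocation genes, 52.9% for the other degradation genes and 76.2% for the other sensors and regulators. The mitochondrial list had 44.4%, and all tested genes 55.4%. These lists share libraries and markers with the members, so they are described and not tested as lists.

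**Figure D5:**
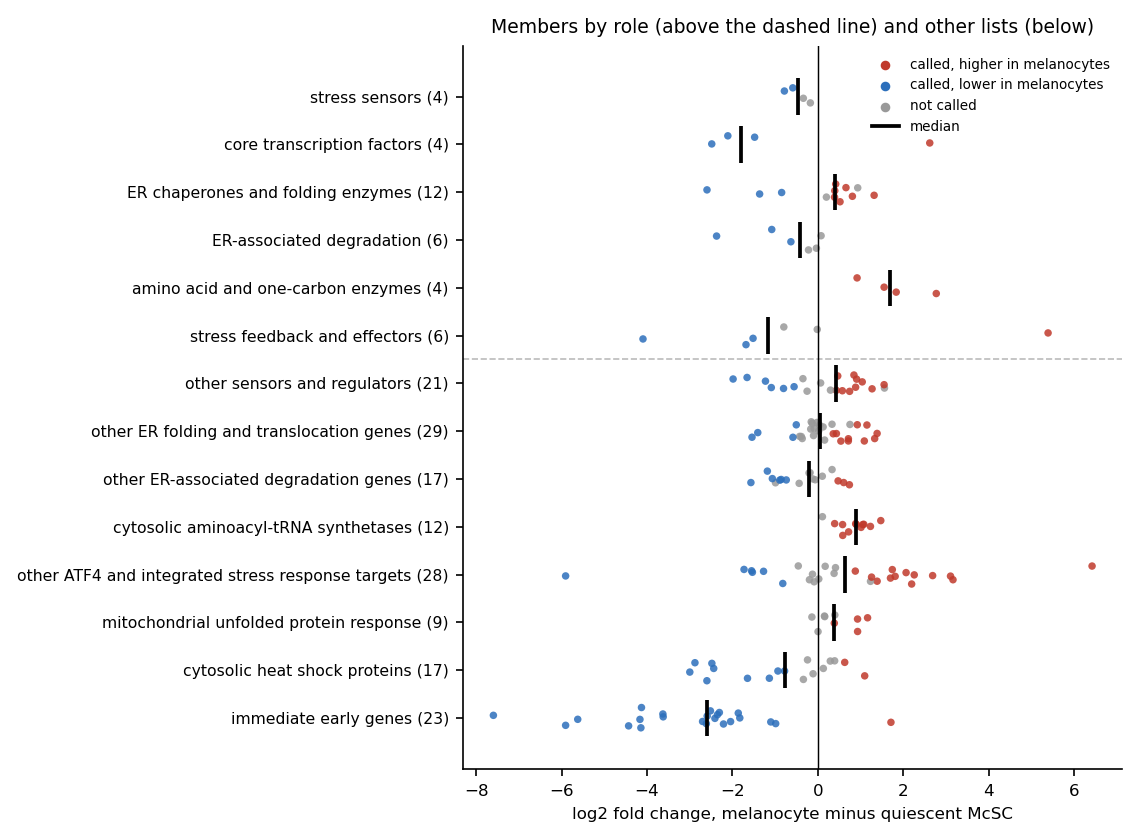
Log2 fold change (melanocyte minus quiescent McSC) of each gene in the 6 roles of the members, above the dashed line, and in 8 other lists, below it; each point is a gene coloured by its call, the vertical bar is the median, and list sizes are in brackets. Immediate early genes (median -2.59) lie left of 0 except for Egr3, and tRNA synthetases (median 0.89) lie right of it.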

How the data were processed

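Sorted cells were profiled by non-stranded sequencing of poly-A RNA in 3 melanocyte and 2 quiescent McSC libraries, which the labels call biological replicates. The deposited table holds counts per Entrez gene, read as raw because they are whole numbers. The submitters' processing notes name STAR 2.5.2a, Salmon 0.8.2 and the build mm10, with roles, gene counter and annotation not given in the sources used here. Of 24100 genes, 24045 matched a RefSeq symbol (GRCm38.p6, the same build), and exon lengths came from GENCODE. Reads shared by paralogs or overlapping genes cannot be separated.

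Genes were filtered with filterByExpr, scaled with TMM and tested with the two-sided quasi-likelihood test of edgeR 4.0.16 (R 4.3.3), all 5 libraries in one fit without covariates, with adjustment over 16953 genes. SE is the size of the fold change over the root of F. Alternatives were other scalings and filters, DESeq2 1.42.0, limma-voom (limma 3.58.1), robust dispersion, a replicate block, thinning, and leaving out each library. The procedure was also run on simulated counts in which few genes changed, equally in both directions. That setting differs from these data, where 55.4% of tested genes were called, so it does not check the scaling here.

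The members and lists were chosen with earlier results of these data known. All 36 members are named. In each other pathway list up to 3 genes with the smallest p are named, with Atf3, Mitf, Dct and Tyr as context. Egr3, Cars, Krt34, Kit, the keratinocyte markers and the genes overlapping members were named after their values were seen.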

Additional observations from a re-analysis of the deposited data

How the results depend on the processing

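Of 27 called members, 18 kept their call and direction under all alternatives that tested them, 9 lost the call in at least 1, and none changed direction; 3 of the 9 uncalled members (Ern1, Sdf2l1, Ddit4) gained a call in at least 1. Where a quiescent McSC library was left out, the remaining one was assumed to vary like the melanocytes. Leaving out 1 library gave 8 to 14 members higher and 11 to 15 lower in melanocytes. For ATF4 targets it gave 6 higher in each case and 2 to 4 lower, and for ATF6/XBP1-type genes 2 to 8 higher and 5 to 6 lower. Over all tested genes the ranges were 3310 to 5148 higher and 2955 to 4857 lower, over the other pathway lists 34 to 58 and 46 to 54, and over the marker lists 50 to 59 and 11 to 19.

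With the replicate number as a block, 8 members (2 of them ATF6/XBP1-type genes) were higher and 12 lower in melanocytes. The replicate numbers were not taken as pairs, since the groups came from males of different ages. Deviations from group means correlated at 0.0455 for replicates 1 and -0.0712 for replicates 2. The deviations of the 2 quiescent McSC libraries mirror each other, so these correlations cannot decide on pairing. Melanocyte replicate 3 had no partner in the block. The median of the members was 0.12 with library size only. That of the ATF4 targets was 1.14 with library size only and 1.02 after thinning. With at least 5 CPM in 2 libraries, Chac1 and Trib3 were not tested.

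Signs of 5 uncalled members changed. With library size only, log2 fold changes were 0.048 for Eif2ak4, 0.0060 for Edem2, 0.19 for Sel1l and 0.21 for Sesn2. With upper quartile scaling they were 0.0019 for Sel1l and 0.026 for Sesn2. With the block they were -0.12 for Edem3, 0.00065 for Sel1l and 0.13 for Sesn2. After thinning they were 0.038 for Sel1l and 0.34 for Sesn2. Sesn2 was 0.010 with the stricter filter and 0.014 with limma-voom. Leaving out 1 library gave -0.071 to 0.30 for Edem3, -0.13 to 0.0081 for Sel1l and -0.16 to 0.14 for Sesn2. The cause was not tested. Counting depth limits Chac1 and Trib3, the members of lowest count.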
